A study of Homo sapiens with 8 samples.

Results

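The distal end of the long arm of chromosome 8, band 8q24.3, is a short and gene-dense stretch. It holds genes of unrelated function, from LY6 surface proteins through metabolic enzymes to RNA processing factors. The genes described here are the 75 protein-coding genes of GENCODE 29 that start between 142.7 and 144.6 Mb of chromosome 8 (GRCh38) and whose symbol does not begin with ZNF. They are 75 of 19407 such protein-coding genes in the annotation. The 3 ZNF genes of the window were left out, and none of the 3 was listed in any table. The window was chosen by the deposited log2 fold changes of the FLAG-TASOR2 comparison below, in which its genes had been seen to be listed as lower. Counts and fold changes from that comparison are therefore a description, with no test.

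RNA was measured in K-562, an established human leukaemia cell line, by sequencing of total RNA after removal of ribosomal RNA. The 8 libraries form 4 groups of 2. The controls are parental wild-type cells that received a negative guide RNA. The altered groups are TASOR knockout cells, TASOR knockout cells expressing a FLAG-TASOR transgene, and parental wild-type cells expressing a FLAG-TASOR2 transgene. Per the labels' protocols, CRISPR/Cas9 knockouts were sorted as single colonies, and lentivirus then carried either an empty puromycin vector or the tagged transgene into the cells. The sources used here do not state whether a group's 2 libraries stem from different clones. The variation between libraries that the deposited p-values rest on may therefore be technical. The labels name no guide for the FLAG-TASOR2 cells, so guide treatment and transgene cannot be told apart in that comparison. All 3 comparisons use the same control libraries.

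TASOR is a scaffold subunit of the human silencing hub (HUSH), which silences LINE-1 retrotransposons and certain genes and acts with the histone H3 lysine 9 methyltransferase SETDB1. TASOR2 is its paralog. In the authors' deposited tables, TASOR was listed as lower in the knockout, at a log2 fold change of -1.08 (SE 0.23), and TASOR2 as higher with its transgene, at 2.26 (SE 0.27). The tables give no value for a single library, so the spread within a group cannot be seen. The degrees of freedom solved from F and p (medians of 5.34 to 6.01) exceed what 2 libraries per group give alone. The F statistic of the authors' test, and any SE derived from it, is therefore not a measure of that spread alone. A gene appears in a table where its unadjusted p was below 0.05, its absolute log2 fold change above 1 and its log2 mean expression (logCPM, from counts scaled to library size) above 1, as checked on the values. A gene that is not listed has no value here, and its level relative to the controls is unknown. Approximate SEs and 95% intervals below were derived from the deposited fold change, F and p. The defining markers of K-562 could not be checked by level, since the tables hold changed genes. The globin genes HBA1, HBA2 and HBZ, markers of the erythroid character of K-562, were listed as higher with FLAG-TASOR2, at log2 fold changes of 1.12, 2.04 and 1.38 and a logCPM of 10.15, 9.51 and 9.43, in the authors' deposited table. HBE1, a further globin gene, was listed as higher in the knockout with FLAG-TASOR, at 2.24 (SE 0.57), in the authors' deposited table. Of the genes looked up as markers of lymphoid, stromal and epithelial cells, VIM was listed as lower with FLAG-TASOR2 (-1.17, logCPM 9.03) in the authors' deposited table. PTPRC was listed as higher in the knockout (1.70, logCPM 6.64). The others looked up were listed in none of the tables. Neither VIM nor PTPRC is read as a sign of another cell type. The part of these globin and marker genes in the results below was not tested.

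With FLAG-TASOR2, 16 of the 75 genes were listed as lower and 0 as higher. Among all 19407 protein-coding genes without a ZNF symbol, 2.46% were listed as lower and 1.04% as higher in the same table, and 3.76% and 2.56% among the 14001 genes that the authors tested. The 16 genes were, in order along the chromosome, THEM6, GSDMD, GRINA, OPLAH, GPAA1, HGH1, HSF1, DGAT1, SCRT1, SLC52A2, FBXL6, CPSF1, KIFC2, FOXH1, PPP1R16A and GPT. Their median log2 fold change was -1.22, which is 57.0% lower than in the controls. Over all 526 genes listed as lower, the median was -1.85, on a median logCPM of 3.02 against 7.54 for the 16. None of the 16 passed an adjusted p of 0.05 (0 genes, against 16 at an unadjusted p below 0.05 in the deposited edgeR-type F-test), where 0.0357% of all tested genes did. Their adjusted p ran from 0.106 to 0.307 in that deposited table. None of the 16 had the reduced degrees of freedom that such a test gives to genes with no count in a whole group (0 of 16).

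RNAs of other classes, looked up after the values had been seen, were also listed in this comparison, as higher, in the authors' deposited table. The mitochondrial genome has 37 annotated genes, of which 11 appeared as higher with FLAG-TASOR2 and 0 as lower, with a median log2 fold change of 1.43, against 0 in the knockout and 1 (MT-RNR2, at 1.02) with FLAG-TASOR. The ribosomal RNAs of mitochondria, MT-RNR1 and MT-RNR2, were at 5.90 (SE 2.18) and 5.60 (SE 1.98) in the authors' deposited FLAG-TASOR2 table. The nuclear ribosomal RNA gene RNA5-8SN2 was listed as higher there, with degrees of freedom that point to no count in a whole group, so no fold is given. Of 132 annotated U1 small nuclear RNA genes, 7 were listed as higher, with a median of 1.31, and 0 as lower. The 7 carry RNU1 or RNVU1 symbols. Genes under the symbol RF00003, a family name for U1 RNA, are not among the 7. They were also listed as higher, at 1.32, 1.43 and 1.47. Among all genes tested, 2.56% were listed as higher, and how many of the 132 were tested is unknown. The libraries were depleted of ribosomal RNA, and the part of such RNAs in the lower values of the window was not tested.

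**Figure D1:**
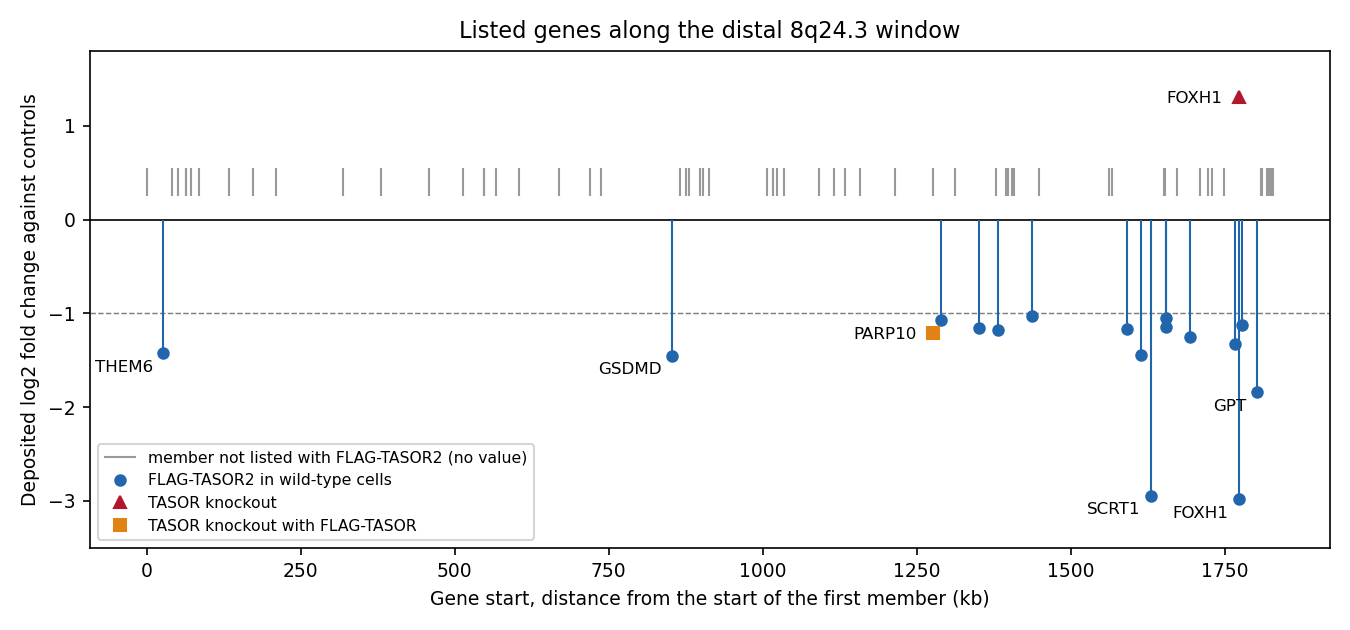
Deposited log2 fold change against the controls (vertical axis) of each listed gene by its distance in kb from the start of the first gene of the window (horizontal axis); grey ticks are genes not listed with FLAG-TASOR2, which have no value, and the dashed line is the listing threshold of -1. The 16 FLAG-TASOR2 values all lie below 0, and 14 of them lie between GRINA and GPT.

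The listed genes were unevenly spread over the window. In 4 parts of equal length, 1 of 14, 1 of 15, 3 of 19 and 11 of 27 genes were listed as lower, a share of 7.14% in the part nearest the centromere and of 40.7% in the part nearest the telomere. From GRINA to GPT (chr8:143990058-144507174) 14 of 30 genes were listed, over 517 kb, a stretch picked out after the values had been seen. Before GRINA, THEM6 and GSDMD stood alone, with 20 unlisted genes of the window between them and 16 between GSDMD and GRINA. Direct neighbours were listed together in 3 places. These were HSF1, DGAT1 and SCRT1, then SLC52A2 and FBXL6, and then KIFC2, FOXH1, PPP1R16A and GPT. The 6 genes of the window beyond GPT (MFSD3, RECQL4, LRRC14, LRRC24, C8orf82 and ARHGAP39) were not listed. Of the listed genes, 10 lie on the plus and 6 on the minus strand, against 32 and 43 of all 75. At the edges of the window, LY6K and ARHGAP39 are the first and last genes inside, PSCA (start 142670308) is the last before it and RPL8 (start 144789765) the first after it when ZNF genes are passed over. LY6K, ARHGAP39, PSCA and RPL8 were not listed in any table.

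By expression the 16 genes formed 2 sets with nothing between them. A set of 11 had a logCPM from 7.13 to 10.18 and log2 fold changes from -1.02 to -1.44 (50.8% to 63.3% lower), with approximate SEs of 0.14 to 0.30. The listing threshold of -1 cuts this range on 1 side, and unlisted genes with smaller changes have no value. The other 5, THEM6, GSDMD, SCRT1, FOXH1 and GPT, had a logCPM of 2.33 to 3.58 and log2 fold changes from -1.42 to -2.98, with SEs of 0.34 to 0.64. The logCPM is not scaled to gene length, so it orders read numbers and not transcript numbers. Of all 526 genes listed as lower with FLAG-TASOR2, 21 had a logCPM of at least 7. The 11 genes of the window were 52.4% of these, and 1 more lay elsewhere on chromosome 8. The X chromosome held 4, and no other chromosome more than 1. Among the other 510 lower genes, 1.96% reached that level, against 68.8% of the 16. At a logCPM of at least 7, the median log2 fold change was -1.15 for the 11 genes of the window and -1.16 for the 10 other lower genes. A further 21 genes at that level were listed as higher, none of them in the window. How many tested genes of the window, or of any chromosome, reached a logCPM of 7 is unknown. No enrichment is therefore read from these counts. The level of 7 was chosen after the values had been seen.

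**Figure D2:**
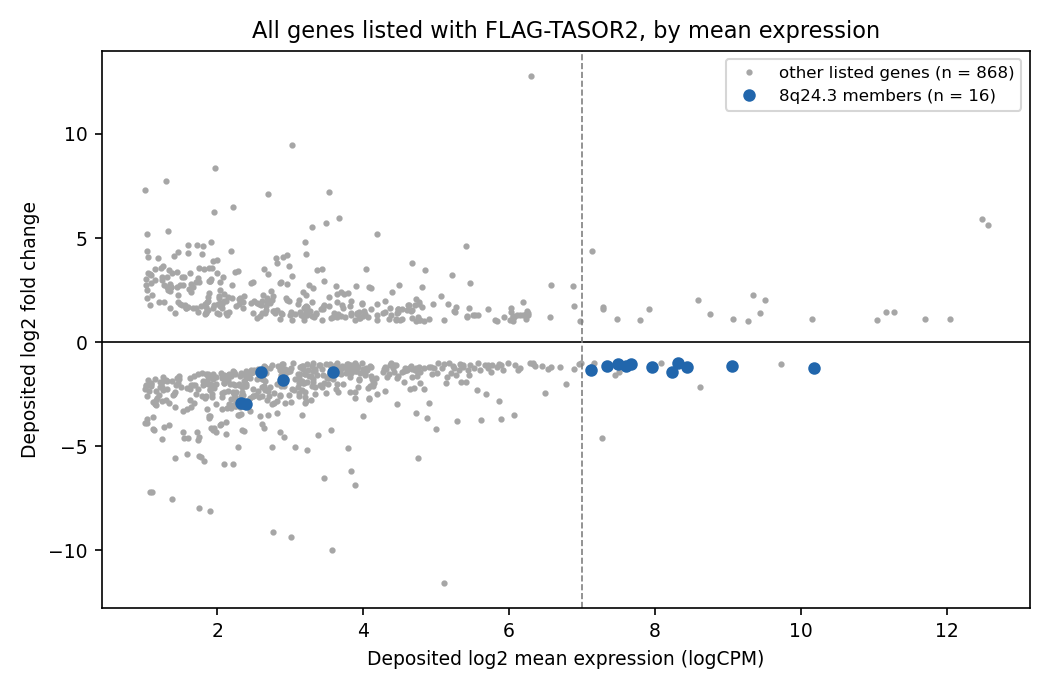
Deposited log2 fold change (vertical axis) against deposited log2 mean expression, logCPM (horizontal axis), for all 884 genes listed with FLAG-TASOR2; blue points are the 16 genes of the 8q24.3 window and the dashed line marks a logCPM of 7. Among lower genes to the right of that line, 11 of 21 are in the window, in a band near -1 whose upper edge is set by the listing threshold.

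Many of the values sat near the listing threshold. Log2 fold changes between -1 and -1.2 were found for 8 of the 16 genes. The approximate 95% interval included -1 for 13 of the 16 and lay wholly below -1 for 3, namely DGAT1, SCRT1 and FOXH1. An interval below 0 is fixed by the listing itself, which asked for a p below 0.05. The median of the 16 genes fell inside the interval of 14 of them. This too is partly set by the listing, which kept only values below -1, so no shared size of change is read from it. Genes of the window that changed by less than a factor of 2 would not be listed, so the number of lower genes in the window cannot be read from the tables.

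**Figure D3:**
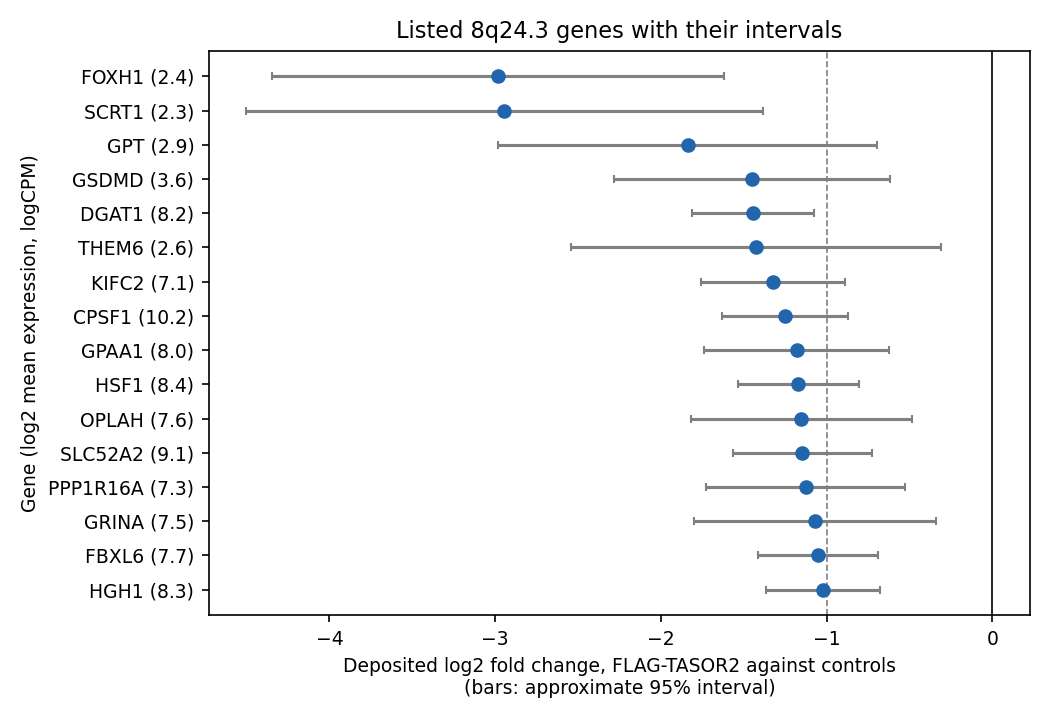
Deposited log2 fold change with FLAG-TASOR2 (horizontal axis; points) and approximate 95% interval (bars) of the 16 listed genes, ordered by fold change and labelled with the logCPM; the dashed line is the listing threshold of -1. The genes of high expression have the short bars, and SCRT1 and FOXH1 lie farthest from 0.

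Among the 10 genes for metabolic enzymes and GPI anchoring, 4 were listed as lower with FLAG-TASOR2. DGAT1 (chr8:144314584-144326910) encodes the acyltransferase of the last step of triglyceride synthesis. It had the smallest p of the window, at a log2 fold change of -1.44 (SE 0.15, interval -1.81 to -1.08, p 6.99e-05, adjusted p 0.106) in the authors' deposited table. GPAA1, a subunit of the transamidase that attaches glycosylphosphatidylinositol (GPI) anchors to proteins, was listed at -1.18 (SE 0.23) in the authors' deposited table. OPLAH, the 5-oxoprolinase of the glutathione cycle, stood at -1.15 (SE 0.27) in the authors' deposited table. GPT, a cytosolic alanine aminotransferase, was the lowest of the 4 at -1.84 (SE 0.47), on a logCPM of 2.91 against 7.60 to 8.23 for the other 3, in the authors' deposited table. The 6 unlisted genes of this set include CYC1 of respiratory complex III, NAPRT of NAD synthesis, PYCR3 of proline synthesis and the steroid hydroxylase genes CYP11B1 and CYP11B2.

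Of 8 transcription factor and regulator genes, 3 were listed as lower. HSF1 (chr8:144291591-144314722), the main activator of the heat shock response, had a log2 fold change of -1.17 (SE 0.15, p 0.00023, adjusted p 0.125) at a logCPM of 8.43 in the authors' deposited table. SCRT1, a zinc finger repressor known from neurons, was at -2.94 (SE 0.64) on a logCPM of 2.33 in the authors' deposited table. FOXH1 (chr8:144473412-144476335), the forkhead partner of SMAD proteins in activin and nodal signalling, was the lowest of the window at -2.98 (SE 0.56, p 0.00172, adjusted p 0.179) in the authors' deposited table. SCRT1 and FOXH1 were thus 7.70-fold and 7.91-fold lower, beside 2.25-fold for HSF1. MAF1, GLI4, ZFP41, MAFA and SCX were not listed.

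Of the 7 genes for RNA processing, ribosome assembly and translation, 2 were listed as lower. CPSF1 (chr8:144393229-144409349), the largest subunit of the cleavage and polyadenylation specificity factor, had the highest mean expression of the 16, a logCPM of 10.18, and a log2 fold change of -1.25 (SE 0.16, p 0.000191, adjusted p 0.125) in the authors' deposited table. HGH1, which takes part in the folding of translation elongation factor 2, was the least changed of the 16 at -1.02 (SE 0.14) in the authors' deposited table. PUF60, EXOSC4, BOP1, EEF1D and ZC3H3 were not listed. BOP1, a ribosome assembly factor on the minus strand, starts next to the start of HSF1 on the plus strand.

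Membrane transporters and channel regulators contributed 2 of 5 genes. SLC52A2, a riboflavin transporter, was listed at -1.15 (SE 0.17, p 0.000524, adjusted p 0.129) on a logCPM of 9.05 in the authors' deposited table. GRINA, a membrane protein of the TMBIM family, was listed at -1.07 (SE 0.30, p 0.0114, adjusted p 0.252) in the authors' deposited table. MFSD3, TMEM249 and the zinc transporter gene SLC39A4 were not listed.

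Of 9 cytoskeleton, junction and polarity genes, 2 were listed as lower. KIFC2, a kinesin motor protein, had a log2 fold change of -1.32 (SE 0.18, p 0.00029, adjusted p 0.125) and PPP1R16A, a regulatory subunit of protein phosphatase 1, one of -1.13 (SE 0.25, p 0.00369, adjusted p 0.199) in the authors' deposited table. PLEC and EPPK1, large genes of the plakin family, and the polarity gene SCRIB were not listed. Among 6 genes for ubiquitin, sorting and cell death, FBXL6, an F-box protein of SCF ubiquitin ligases, was listed at -1.05 (SE 0.15) and GSDMD, the pore-forming effector of pyroptosis, at -1.45 (SE 0.34) in the authors' deposited table. SHARPIN, VPS28, CYHR1 and LRRC14 of that set were not listed. THEM6, a thioesterase superfamily gene, was the 1 listed gene of 11 that were given no common role, at -1.42 (SE 0.46, p 0.0205, adjusted p 0.307) in the authors' deposited table.

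Other sets of the window had no listed gene with FLAG-TASOR2. These were the 12 genes for LY6/uPAR surface proteins, which lie at the centromere side (LY6E and LYNX1 among them), the 4 genes for DNA repair, replication and ADP-ribosylation (RECQL4, TONSL, TOP1MT and PARP10), and the 3 kinase and pseudokinase genes (NRBP2, ADCK5 and MAPK15). Whether the unlisted genes were tested or were below the authors' expression limits cannot be told apart from the tables.

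Several of the listed genes share exonic sequence with a neighbour on the opposite strand, and the sources used here do not state if the authors counted by strand. Of the 16, 8 overlap the span of another protein-coding gene and 12 that of an annotated gene of any class. Among all 75 genes of the window, 33 overlap another protein-coding gene, so such overlap was not particular to the listed genes. FBXL6 lies within the span of SLC52A2, and their exons share 1069 bp, which is 31.7% of the exonic length of FBXL6 and 34.7% of that of SLC52A2. FOXH1 and KIFC2 share 791 bp of exons, 31.6% of FOXH1 and 17.8% of KIFC2, and KIFC2 had the higher logCPM of the pair, 7.13 against 2.40, in the authors' deposited table. PPP1R16A shares 2848 bp, or 52.6% of its exonic length, with AC084125.2, an annotated processed transcript. Without strand, reads from such shared exons cannot be told apart, and the values of FBXL6, SLC52A2, FOXH1, KIFC2 and PPP1R16A are uncertain for that reason.

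For the other overlapping genes the shared exons were a smaller part. GRINA lies within the span of PARP10, and 324 bp of exons were shared, 12.8% of GRINA and 5.37% of PARP10. The exonic share was 11.1% for THEM6 and 7.51% for GPT, each with a non-coding neighbour on the other strand. HSF1 and DGAT1 share 139 bp and CPSF1 and ADCK5 14 bp. DGAT1 also shares 444 bp of exons, 10.7% of its exonic length, with AC233992.1, an antisense RNA gene on the same strand as DGAT1. Among genes of other classes in the window, SMPD5, annotated as a pseudogene, shares 207 bp of exons with OPLAH on the opposite strand and was listed at -1.14 (SE 0.38) in the authors' deposited table. The antisense RNA gene AC233992.3 next to CPSF1 was listed at -1.51 (SE 0.57) in that deposited table. With the 8 genes that overlap another protein-coding gene left out, 8 listed genes remain, namely THEM6, GSDMD, OPLAH, GPAA1, HGH1, SCRT1, PPP1R16A and GPT. With every gene that overlaps any annotated gene left out, 4 remain, namely GSDMD, GPAA1, HGH1 and SCRT1.

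The remaining parts of chromosome 8 did not share this density of lower genes. There, 7 of 590 protein-coding genes (1.19%) were listed as lower and 8 (1.36%) as higher with FLAG-TASOR2, against 21.3% and 0% in the window. In the 76 stretches of 1.9 Mb between the short-arm end and the window, 1 gene at most was listed as lower in any stretch, and 69 had 0, but these stretches held no more than 33 genes each. At the long-arm ends of the other chromosomes, taken as the last 2.5 Mb of annotation, 18 of 769 genes (2.34%) were listed as lower. Of these 18, 11 lay at the end of the X chromosome (11 of 67, 16.4%), and the remaining ends together had 7 of 702 (0.997%). The end of chromosome 9 holds as many genes as that of chromosome 8 (81) and had 0 listed. No test of these differences was made, because the window was chosen for its lower genes.

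**Figure D4:**
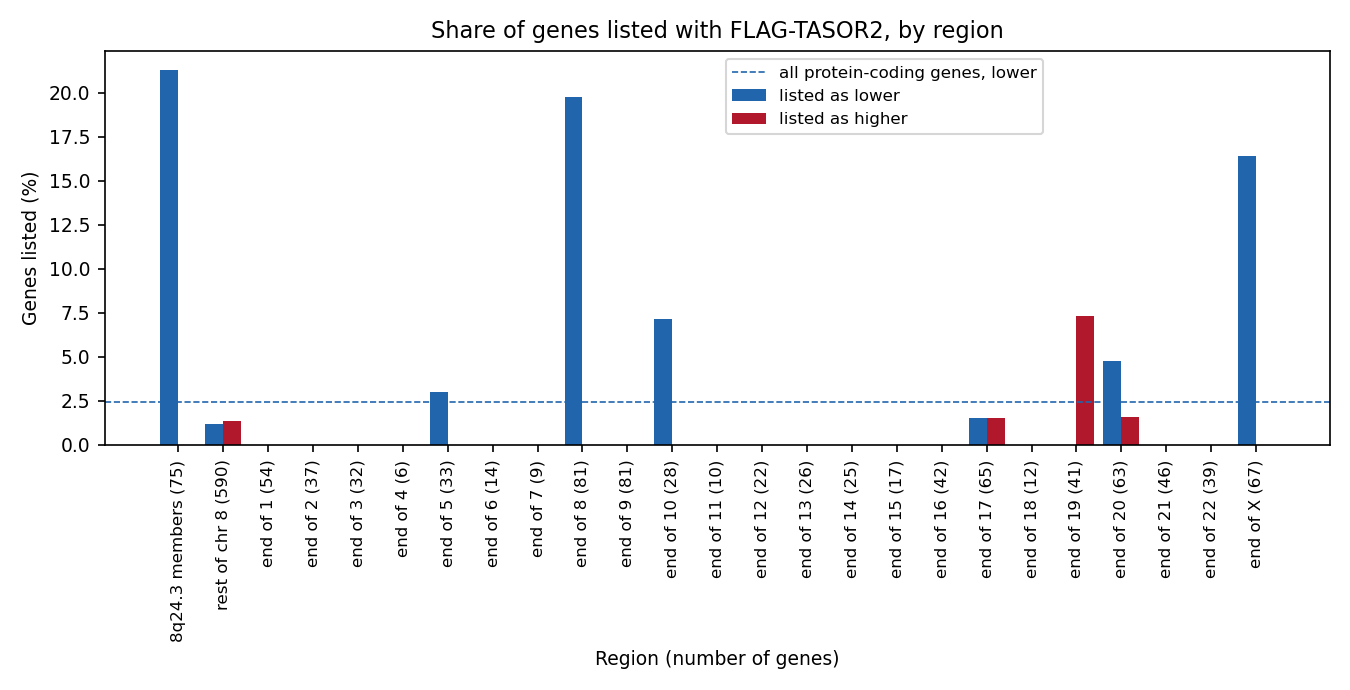
Share in percent of annotated protein-coding genes listed with FLAG-TASOR2 as lower (blue) or higher (red) in the 8q24.3 window, in the rest of chromosome 8 and in the last 2.5 Mb of each chromosome's long arm; the number of genes is in parentheses and the dashed line is the 2.46% listed as lower among all protein-coding genes. The window and the end of chromosome 8 that contains it stand highest, followed by the end of the X chromosome.

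The genes of the window are short and rich in G and C. The median span was 7656 bp for the 16 listed genes and 7187 bp for the 59 others, against 27261 bp over all protein-coding genes and 38484 bp over the 461 other protein-coding genes listed as lower. The median GC content of the longest coding transcript was 65.2% for the 16 and 64.5% for the others of the window, against 49.7% over all protein-coding genes, 44.9% on the rest of chromosome 8 and 52.7% among the other lower genes. The listed genes had a median of 7.5 exons and the unlisted ones of the window 6, against 9 over all protein-coding genes. The other protein-coding genes listed as lower had a median of 12. By these 3 features the listed and unlisted genes of the window were close to each other. In median span and GC content the window as a whole stood apart from the genes listed as lower elsewhere. The quartiles of exon number overlapped, from 4 to 12.5 for all 75 genes and from 6 to 19 for those other lower genes. Those of span overlapped too, from 3905.5 to 15990.5 bp and from 14354 to 88660 bp. Those of GC content did not, from 62.7% to 66.4% and from 45.1% to 58.7%. The part of GC content or gene length in the deposited fold changes was not tested.

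In the TASOR knockout, 1 of the 75 genes was listed, as higher, and 0 as lower, where 0.417% and 0.567% of all protein-coding genes without a ZNF symbol were listed, and 0.979% and 0.936% of the 13992 genes tested. An adjusted p below 0.05 was reached by 0.00715% of the tested genes and by none of the 75. It was FOXH1, with a log2 fold change of 1.31 (SE 0.40, interval 0.30 to 2.31, p 0.0198, adjusted p 1.00) in the authors' deposited table. Against the same controls, FOXH1 was therefore listed in opposite directions, at 1.31 in the knockout and at -2.98 with FLAG-TASOR2, in the authors' deposited tables. The difference between these groups was not tested. KIFC2, which shares part of its sequence with FOXH1, was listed with FLAG-TASOR2 and not in the knockout.

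In TASOR knockout cells expressing FLAG-TASOR, 1 of the 75 genes was listed, as lower, and 0 as higher, where 0.752% and 0.304% of all protein-coding genes without a ZNF symbol were. It was PARP10 (chr8:143977153-144012772), which encodes a mono-ADP-ribosyltransferase, at -1.21 (SE 0.40, interval -2.21 to -0.20, p 0.027, adjusted p 0.999) in the authors' deposited table. GRINA lies inside PARP10 on the other strand and was listed with FLAG-TASOR2 and not here. In both knockout comparisons the share of the 75 genes listed (1.33%) rests on 1 gene, and none of the other 15 genes listed with FLAG-TASOR2 had a value in either table.

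The proteins made from these genes work with partners encoded elsewhere in the genome. For 13 such groups, among them the GPI transamidase, the RNA exosome, the cleavage and polyadenylation factor, respiratory complex III and the heat shock factors with their targets, 95 genes were looked up. With FLAG-TASOR2, 1 was listed as lower and 1 as higher, and 0 in the other 2 tables. These shares are near the 2.46% and 1.04% of all protein-coding genes without a ZNF symbol, so nothing about the partners is read from them. HSF4, a heat shock factor gene related to HSF1, was listed at -1.85 (SE 0.50, p 0.0101, adjusted p 0.248), and EEF1A2, a translation elongation factor gene whose product works with that of EEF1D, at 1.72 (SE 0.67, p 0.0437, adjusted p 0.391), in the authors' deposited table. HSF4 was the 1 listed gene among 13 heat shock factors and targets. Likewise 0 of 9 partners of CPSF1 and 0 of 4 partners of GPAA1 were listed. Of 7 HUSH genes, TASOR and TASOR2 were listed, each in the comparison named above.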

How the data were processed

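Per the submitters' processing notes, the hg38 build, edgeR, DESeq2, Salmon and STAR 2.7.8 were used, without a role for each; hg38 is the same assembly as GRCh38. Per the file headers, the 3 deposited tables hold log2 fold changes, mean expression as logCPM, an F score, and a p-value before and after adjustment. The score, p-value and log2 values were used as the authors deposited them. The authors' columns match those of an edgeR F-test, but the sources name no tool for this step. No value per library is in the tables, so depth is unknown and no model was refitted.

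The approximate SE was taken as the size of the log2 fold change over the root of F. Degrees of freedom were solved from F and p (median 5.36 for the knockout, 5.34 with FLAG-TASOR, 6.01 with FLAG-TASOR2) and gave the 95% intervals, under the assumption of a t-distributed estimate. This step was tested on simulated data. The number of genes tested (13992 for the knockout, 14001 with FLAG-TASOR2) was recovered by dividing the top gene's adjusted p by its unadjusted p and could not be had for the FLAG-TASOR table. Positions came from GENCODE 29, matched by Ensembl identifier (256 of 268, 253 of 261 and 850 of 884 listed genes on the chromosomes). Every gene of the window listed in any table was named. The members, role lists and partner lists were chosen with earlier results of these data known. Analyses used Python 3.11.15, pandas 2.3.3 and scipy 1.17.1. Alternatives were other window edges, placement by the 5′ end, ZNF genes kept, all gene classes, matching by symbol, and stricter limits on p, fold change and expression. Tables of transposable elements were not used here.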

Additional observations from a re-analysis of the deposited data

How the results depend on the processing

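The 16 genes listed as lower with FLAG-TASOR2 became 6 with the window shortened by 0.3 Mb at each edge. They became 3 with an absolute log2 fold change above 1.5. They became 8 without genes that overlap another protein-coding gene and 4 without those that overlap any annotated gene. These last 2 alternatives were chosen after seeing the data. Of all 75 genes of the window, listed or not, 33 overlap another protein-coding gene, and a shorter window also holds fewer genes. The counts after shortening or leaving out overlaps are therefore to be set against fewer than 75 genes. With the shortened window the share of listed genes fell too, below the 21.3% of the full window. Of the 4 parts of equal length, those wholly inside it had 6.67% and 15.8% of their genes listed. The part nearest the telomere, most of which it cuts off, had 40.7%. Leaving out overlaps with another protein-coding gene took away 8 of the 16 listed genes and 33 of all 75. A lower count without overlapping genes is therefore not by itself a lower share. The other 8 alternatives stayed within 1.5 times the reported count, and the count of higher genes stayed 0 under all 9 run for it. The median log2 fold change moved from -1.22 to -2.94 with the limit of 1.5, which leaves 3 genes, and by less than the median SE of 0.24 under the other 8. The single gene listed in the knockout gave 0 with the shortened window, with p below 0.01, with the fold limit of 1.5 and without overlapping genes of either kind. The single gene listed with FLAG-TASOR gave 0 with p below 0.01, with the limit of 1.5 and without overlapping genes of either kind. No replicate could be left out, because the tables hold no value per library. No paired analysis was possible because the tables hold no value per library. Pseudocounts, normalization and low-count filters of the authors could not be varied for the same reason.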
